A study of Mus musculus with 47 samples.

Results

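The genes described here are the collagens and the matrix remodelling genes of the mouse kidney, taken from RNA-seq of whole tissue. Every row of the count table whose symbol has the collagen form (Col, a number, a and a number) was a member, together with Fn1, Tgfb1, Tgfb2, Grem1, Ctgf, Acta2, Pdgfrb, Timp1, Timp2, Timp3, Mmp2, Mmp14, Lox, Sparc, Postn and Vim. That gave 59 of the 22474 genes in the table, 43 of them collagens. Ccn2 is a newer symbol of Ctgf and had no row of its own. The study asked how diet acts in mice of different genetic backgrounds that serve as models of type 2 diabetes. NZO/HlLtJ (an inbred strain prone to obesity and diabetes), CAST/EiJ (a wild-derived inbred strain) and C57BL/6J mice, females (F) and males (M), all wild type, ate either a high-fat, high-sugar diet with 44% fat or a control diet with 10% fat, both with added fibre. The diets began at 6 weeks of age and the tissue was taken at 15 weeks. Strain, sex and diet made 12 groups. CAST/EiJ M on 10% fat had 3 libraries and the other 11 groups had 4 each, 47 in all, with 34.4 to 58.4 M assigned counts each (median 44.8 M). The labels call the tissue metanephros, the embryonic name of the permanent kidney; proximal tubule markers summed to 11345 to 17288 CPM (counts scaled to a common library total) and podocyte markers to 305 to 537 CPM over the 47 libraries, with no marker of either list at 0. The labels do not say that each library came from its own animal, so p-values measure the spread between these libraries.

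Collagens are chains that wind into a triple helix outside or on the surface of cells. Fibrillar types (I, III, V, XI, XXIV, XXVII) give tensile strength, type IV forms the network of basement membranes, and type VI forms beaded filaments around cells. In the kidney, the filter of the glomerulus rests on a network of the type IV chains encoded by Col4a3, Col4a4 and Col4a5, while fibroblasts and pericytes lay down interstitial collagen, a process that transforming growth factor beta (Tgfb1, Tgfb2) and connective tissue growth factor (Ctgf) stimulate. Matrix metalloproteases (Mmp2, Mmp14) cut the matrix, and the tissue inhibitors Timp1, Timp2 and Timp3 restrain them.

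Of the 59 members, 55 passed the filter on low counts, 39 of them collagens. Col2a1, Col9a2, Col10a1 and Col22a1 did not, with mean counts of 1.8, 1.3, 3.6 and 1.4 per library. Per kilobase of exon, Timp3 had by far the highest level of any member, at 297.5 CPM per kb, which was 42.0% of the summed level of the members. The basement membrane genes Col4a1 (57.1 CPM per kb), Col4a3 (54.7), Col4a4 (42.9) and Col4a2 (39.1) followed, ahead of Sparc (28.1), which encodes a collagen-binding protein, and of Col18a1 (27.7), the precursor of endostatin. The chains of the main interstitial collagens stood far lower, with Col1a2 at 4.66, Col3a1 at 4.43 and Col1a1 at 3.24 CPM per kb, the last ranking 24 among the members. Col27a1 ranked 9, at 12.6 CPM per kb, and Col5a2 ranked 16, at 7.32 CPM per kb. Timp3 shares its locus with Syn3 and Col18a1 shares its own with Slc19a1, each on the other strand. Whether the counting used strand is not given in the sources used here, and the mean of Syn3 was 6.58 CPM and that of Slc19a1 82.6 CPM.

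**Figure D1:**
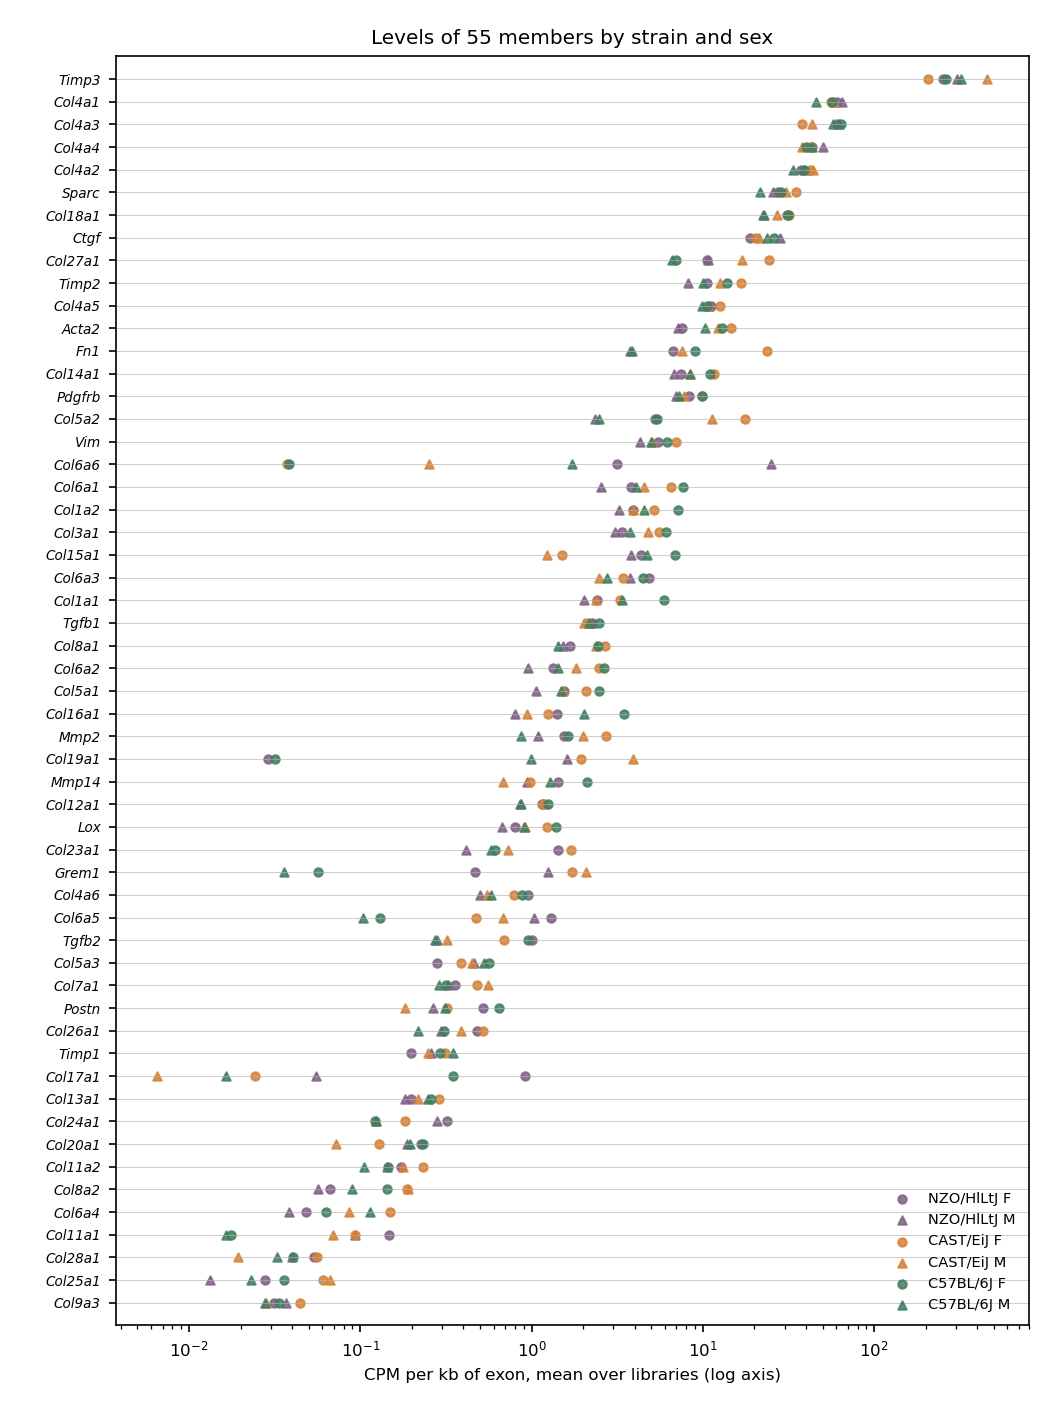
Mean level of the 55 members that passed the filter, in CPM per kilobase of exon on a log axis, with 1 point for each strain and sex. Timp3 has the highest mean, the Col4a1 to Col4a4 chains follow, and Col6a6 has the widest gap between its points, with 25.1 CPM per kb in NZO/HlLtJ M and 0.0371 in CAST/EiJ F.

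Diet was compared within each strain, with both sexes weighted equally, by edgeR's quasi-likelihood F test with adjustment over 18786 genes. The model also held the leading number of the library IDs (77, 81 or 89), called the ID run here; the labels do not say what it stands for. A gene is said to have risen or fallen where its adjusted p was under 0.05. Among the 55 members, NZO/HlLtJ had 3 that rose on 44% fat (Col27a1, Grem1, Col6a3) and 2 that fell (Col5a2, Col26a1). C57BL/6J had 1 that rose (Col27a1) and 1 that fell (Col5a2), and CAST/EiJ had none. The members' shares in NZO/HlLtJ were 5.45% higher and 3.64% lower, against 1.98% higher and 1.64% lower of all genes tested there. In C57BL/6J the members' share was 1.82% in each direction, against 0.0213% higher and 0.00532% lower of all genes. Each of these member shares is 1 gene, Col27a1 or Col5a2. Both genes were picked to be shown singly with earlier results of these data known, and both are also among the NZO/HlLtJ calls. The shares therefore cannot show that the members respond to diet more often than other genes. In CAST/EiJ, 0.543% of all genes were higher and 0.447% lower. The median member moved by a log2 fold change of 0.02 in NZO/HlLtJ, 0.12 in CAST/EiJ and -0.02 in C57BL/6J, beside medians of -0.0016, -0.0025 and 0.001 over all genes. In whole tissue, fewer cells of a type and less RNA per cell cannot be told apart, here or in any comparison that follows.

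Col27a1 encodes a fibrillar collagen known from cartilage and other developing tissues. The gene (ENSMUSG00000045672) lies on the plus strand of chromosome 4, at 63214004 to 63334991 of GRCm38. Its upstream sequence is shown because Col27a1 rose on 44% fat in both strains with diet calls among the members. The stretch is chr4:63215162-63215411, plus strand, of GRCm38.p6, from RefSeq; it ends just before the RefSeq start, which lies inside the bounds that the deposited annotation gives the gene. Capitals mark matches to the GC box GGGCGG and to the SMAD element CAGAC, searched on both strands.
Col27a1: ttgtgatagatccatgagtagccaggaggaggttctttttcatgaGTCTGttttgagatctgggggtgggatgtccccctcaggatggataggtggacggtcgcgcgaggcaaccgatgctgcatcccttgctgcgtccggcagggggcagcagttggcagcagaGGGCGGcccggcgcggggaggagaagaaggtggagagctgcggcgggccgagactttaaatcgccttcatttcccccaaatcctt
The stretch held 1 GC box and 1 SMAD element; 32.7% of the 32851 RefSeq promoters searched over the same 250 bases hold a GC box and 42.2% a SMAD element. Neither TATAAA, which 12.4% of those promoters hold, nor the steroid receptor half-site AGAACA, which 16.1% hold, was among its letters.

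In NZO/HlLtJ F, Col27a1 measured 166, 149, 162 and 167 CPM on 44% fat, against 104, 134, 106 and 119.9 CPM on 10% fat. In NZO/HlLtJ M it measured 215, 208, 172 and 162 CPM on 44% fat, against 78.7, 87.1, 103 and 89.1 CPM on 10% fat. Every 44% fat library lay above every 10% fat library of its sex. The log2 fold change was 0.78 ± 0.11 (SE), with an adjusted p of 7.97e-05 by the edgeR test. In C57BL/6J F, the 44% fat libraries held 111, 103, 120.2 and 111 CPM and the 10% fat libraries 58.7, 78.0, 71.0 and 69.9 CPM. In C57BL/6J M, the 44% fat libraries held 109, 120.4, 67.2 and 117 CPM and the 10% fat libraries 56.9, 81.7, 65.1 and 65.9 CPM. The females did not overlap, while 1 male library on 44% fat lay among the males on 10% fat. The C57BL/6J log2 fold change was 0.65 ± 0.11 (adjusted p = 0.0158, edgeR). It lost the call when F 10% fat replicate 1, M 10% fat replicate 1, M 10% fat replicate 3 or M 44% fat replicate 4 was left out, with adjusted p of 0.0732, 0.0699, 0.0615 and 0.0648, and when only the strains compared were fitted (0.122). In CAST/EiJ F, the values were 255, 411, 429 and 318 CPM on 44% fat and 251, 326, 314 and 243 CPM on 10% fat. In CAST/EiJ M, they were 208, 237, 212 and 313 CPM on 44% fat and 208, 214 and 154 CPM on 10% fat. Both sexes overlapped between diets, and the CAST/EiJ log2 difference of 0.31 ± 0.12 did not pass the test (adjusted p = 0.214, edgeR; 95% interval 0.08 to 0.53).

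Ordered by their means, the CAST/EiJ groups had the highest levels of Col27a1. They held 353 ± 81.1 CPM in F on 44% fat, 284 ± 42.6 in F on 10% fat, 242 ± 48.5 in M on 44% fat (n = 4 each) and 192 ± 33.1 in M on 10% fat (SD, n = 3). NZO/HlLtJ M and F on 44% fat came next, at 189 ± 26.2 and 161 ± 8.25 CPM, and then NZO/HlLtJ F on 10% fat at 116 ± 14 CPM (n = 4 each). C57BL/6J F and M on 44% fat followed, at 111 ± 7.13 and 104 ± 24.7 CPM. The lowest were NZO/HlLtJ M, C57BL/6J F and C57BL/6J M on 10% fat, at 89.5 ± 10.2, 69.4 ± 8.02 and 67.4 ± 10.4 CPM. Neighbours in this order differed by less than the larger of their SDs, apart from 4 pairs: CAST/EiJ M on 44% over 10% fat, NZO/HlLtJ M over F on 44% fat, NZO/HlLtJ F on 44% over 10% fat, and NZO/HlLtJ M over C57BL/6J F on 10% fat. The diet effect on Col27a1 in NZO/HlLtJ minus that in CAST/EiJ was 0.47 ± 0.16 (adjusted p = 0.14, edgeR), and minus that in C57BL/6J it was 0.12 ± 0.16 (0.928). Neither difference passed. The diet effect in F minus that in M was -0.53 ± 0.24 in NZO/HlLtJ (adjusted p = 0.396), -0.04 ± 0.23 in CAST/EiJ (0.997) and 0.06 ± 0.22 in C57BL/6J (1), none of which passed.

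Col5a2 encodes a chain of type V collagen, a minor fibrillar collagen that sits inside type I fibrils and limits their diameter. The gene (ENSMUSG00000026042) lies on the minus strand of chromosome 1, at 45374321 to 45503282. In NZO/HlLtJ F, Col5a2 measured 47.1, 39.3, 34.5 and 32.9 CPM on 44% fat, against 58.0, 59.6, 62.3 and 71.6 CPM on 10% fat. In NZO/HlLtJ M it measured 15.2, 18.9, 19.9 and 16.5 CPM on 44% fat, against 24.4, 31.7, 31.6 and 22.0 CPM on 10% fat. The diets did not overlap in either sex. Col5a2 fell by 0.68 ± 0.10 on the log2 scale (adjusted p = 0.000139, edgeR). In C57BL/6J F, the 44% fat libraries held 38.3, 55.1, 36.2 and 44.6 CPM and the 10% fat libraries 78.1, 46.1, 61.1 and 54.4 CPM. In C57BL/6J M, the 44% fat libraries held 23.0, 18.4, 19.4 and 15.4 CPM and the 10% fat libraries 34.0, 27.0, 26.7 and 26.9 CPM. The males did not overlap and the females did. In C57BL/6J the gene fell by 0.52 ± 0.10 (adjusted p = 0.0438, edgeR). The call was not kept when the ID run term or the expression filter was dropped (adjusted p = 0.0716 and 0.0686). It was also lost with only the strains compared, on the deposited log2 matrix and without the 2 libraries highest in urothelium markers. With 1 library of the strain left out, it was kept in 5 of the 16 fits (adjusted p between 0.0138 and 0.25). In CAST/EiJ F, the values were 145, 180.3, 181 and 162 CPM on 44% fat and 210.0, 155, 165 and 153 CPM on 10% fat. In CAST/EiJ M, they were 110.0, 105, 99.0 and 98.4 CPM on 44% fat and 103, 121 and 124 CPM on 10% fat. Both sexes overlapped, and the log2 difference in CAST/EiJ was -0.11 ± 0.10 (adjusted p = 0.687; 95% interval -0.32 to 0.09).

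The diet effect on Col5a2 differed between NZO/HlLtJ and CAST/EiJ, by -0.56 ± 0.15 (adjusted p = 0.0422, edgeR), which made it the 1 member called of 55 in that comparison, or 1.82%, beside 1.28% of all genes. The call was kept in 12 of the 31 fits with 1 library left out. Between NZO/HlLtJ and C57BL/6J the difference was -0.16 ± 0.14 (0.892). The diet effect in F minus that in M was 0.02 ± 0.22 in NZO/HlLtJ (0.987), 0.12 ± 0.20 in CAST/EiJ (0.945) and 0.14 ± 0.20 in C57BL/6J (adjusted p = 1). By group mean, Col5a2 was highest in CAST/EiJ F, at 167 ± 17.4 CPM on 44% fat and 171 ± 26.7 CPM on 10% fat (SD, n = 4 each), which lay within 1 SD of each other. CAST/EiJ M followed, at 103 ± 5.48 CPM on 44% fat (n = 4) and 116 ± 11.4 CPM on 10% fat (n = 3). The females of the other strains came next, NZO/HlLtJ F at 38.5 ± 6.39 CPM on 44% fat and 62.9 ± 6.07 CPM on 10% fat, and C57BL/6J F at 43.6 ± 8.48 CPM on 44% fat and 59.9 ± 13.6 CPM on 10% fat (n = 4 each). Their males were lowest, NZO/HlLtJ M at 17.6 ± 2.16 CPM on 44% fat and 27.4 ± 4.99 CPM on 10% fat, and C57BL/6J M at 19.1 ± 3.17 CPM on 44% fat and 28.6 ± 3.55 CPM on 10% fat. At each diet and sex, NZO/HlLtJ and C57BL/6J differed by less than the larger of their SDs.

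**Figure D2:**
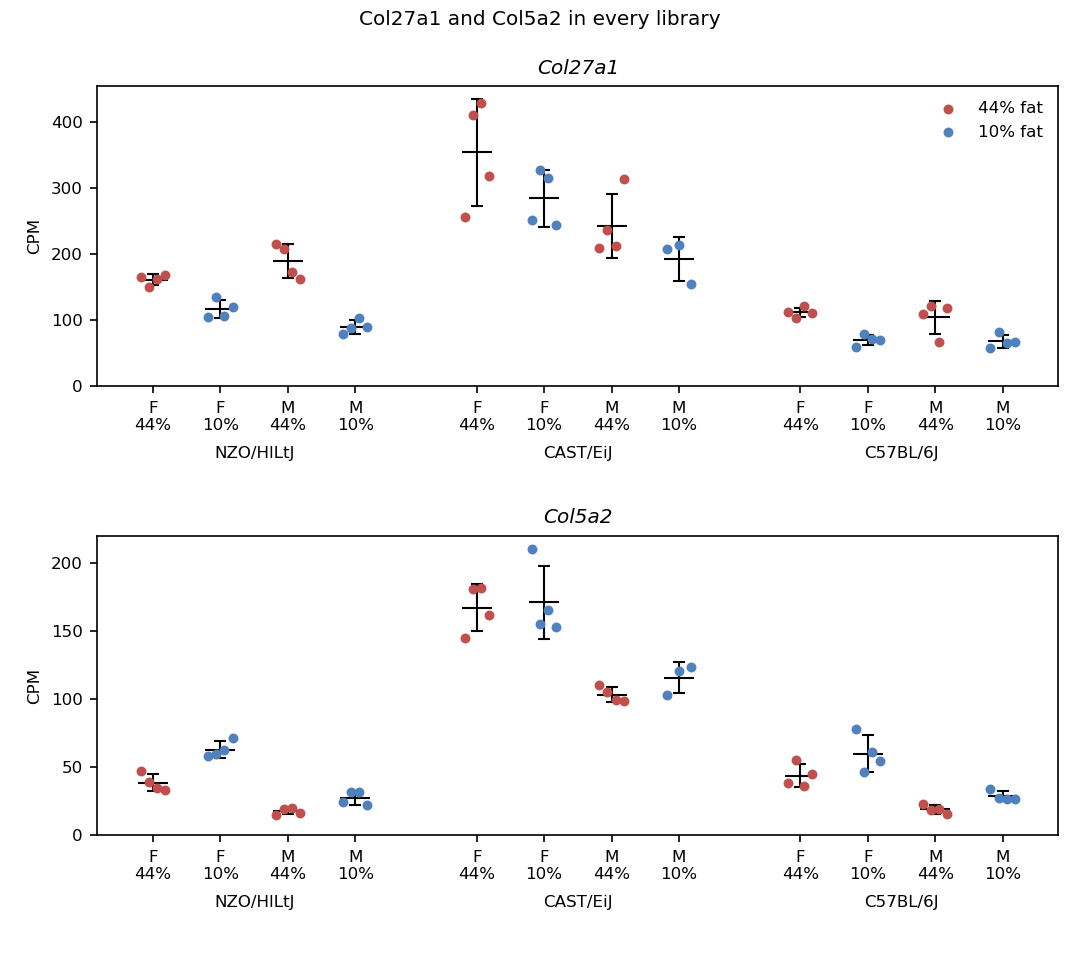
CPM of Col27a1 and Col5a2 in each library of the 12 groups, with bars at the mean and SD; within each strain and sex the 44% fat group stands left of the 10% fat group. Col27a1 lies higher on 44% fat without overlap in NZO/HlLtJ F and M and in C57BL/6J F, and Col5a2 lies lower without overlap in NZO/HlLtJ F and M and in C57BL/6J M.

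Within an ID run and sex, Col27a1 was higher on 44% fat in 6 of 6 pairs of C57BL/6J groups, in 6 of 6 of CAST/EiJ and in 2 of 2 of NZO/HlLtJ. The log2 differences ran between 0.438 and 0.941 in C57BL/6J and between 0.004 and 1.025 in CAST/EiJ, and they were 0.407 and 1.351 in NZO/HlLtJ. Col5a2 was lower in 6 of 6 such pairs in C57BL/6J, in 3 of 6 in CAST/EiJ and in 2 of 2 in NZO/HlLtJ, where the differences were -0.711 and -0.449. In NZO/HlLtJ, ID run 77 alone held both diets of a sex; in ID runs 81 and 89 each sex of that strain had a single diet, so diet and sex cannot be told apart there.

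Grem1, which encodes the secreted BMP antagonist gremlin 1, rose on 44% fat in NZO/HlLtJ. It lies on the minus strand of chromosome 2, at 113746164 to 113758646. Its upstream sequence is shown because Grem1 had the largest diet difference of the members that rose; it is chr2:113758649-113758898, minus strand, of GRCm38.p6, from RefSeq, with the same motifs in capitals.
Grem1: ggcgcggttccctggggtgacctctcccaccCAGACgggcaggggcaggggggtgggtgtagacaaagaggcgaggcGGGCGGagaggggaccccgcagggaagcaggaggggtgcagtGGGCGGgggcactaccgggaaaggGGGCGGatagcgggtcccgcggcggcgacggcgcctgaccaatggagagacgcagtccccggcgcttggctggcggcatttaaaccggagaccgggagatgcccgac
These letters held 3 GC boxes and 1 SMAD element, and neither TATAAA nor AGAACA. In NZO/HlLtJ M, Grem1 measured 16.5, 3.55, 0.650 and 19.1 CPM on 44% fat, against 0.322, 0.259, 0.866 and 0.365 CPM on 10% fat. In NZO/HlLtJ F, it measured 1.98, 5.72, 1.08 and 0.865 CPM on 44% fat, against 0.961, 2.93, 0.573 and 1.39 CPM on 10% fat. The females overlapped widely; 3 of the 4 males on 44% fat lay above all males on 10% fat, and the fourth lay among them. The males at 16.5 and 19.1 CPM also held the highest sums of the 6 adipocyte markers among NZO/HlLtJ males, 57.9 and 56.6 CPM, beside 31.2 and 31.4 CPM in the other males on 44% fat and 30.9 to 36.1 CPM on 10% fat. The females highest in Grem1 were also highest in these markers, at 53.6 CPM of them on 44% fat and 45.5 CPM on 10% fat. In no CAST/EiJ group was the library highest in Grem1 also the highest in these markers. Among CAST/EiJ F on 10% fat, the library with the highest marker sum, 60.2 CPM, had the lowest Grem1, 2.61 CPM. No adipocyte marker passed the diet test or was at 0, and their part in the Grem1 values was not tested. The log2 fold change was 2.52 ± 0.48 (adjusted p = 0.00182, edgeR), and it did not pass under limma-voom (2.43, adjusted p = 0.0815) or when only the strains compared were fitted (2.5, adjusted p = 0.14). It kept its call without M 44% fat replicate 1 (2.42, adjusted p = 0.00664) or replicate 4 (2.04, adjusted p = 0.0104), the 2 males high in adipocyte markers, each left out alone. The effect in F minus that in M was -3.59 ± 1.02 and did not pass (adjusted p = 0.247, edgeR). In CAST/EiJ the log2 difference was 0.48 ± 0.41 (0.664) and in C57BL/6J 1.11 ± 0.90 (adjusted p = 0.979). C57BL/6J libraries held 0.0729 to 0.387 CPM in F and 0.0611 to 0.318 CPM in M, over both diets, and the 95% interval of their diet difference ran from -0.67 to 2.88.

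Col6a3, a chain of type VI collagen on chromosome 1 (90765923 to 90843971), also rose in NZO/HlLtJ. The males held 58.5, 46.6, 53.8 and 58.1 CPM on 44% fat, against 33.5, 36.9, 33.4 and 37.2 CPM on 10% fat. The females held 61.3, 70.9, 51.7 and 64.8 CPM on 44% fat, against 50.8, 52.6, 57.8 and 56.0 CPM on 10% fat. Males did not overlap and females did. The log2 fold change was 0.41 ± 0.10 (adjusted p = 0.0146, edgeR), beside 0.24 ± 0.11 in CAST/EiJ (0.314) and 0.02 ± 0.10 in C57BL/6J (1). Col26a1, a collagen gene on chromosome 5 (136741759 to 136883209), fell in NZO/HlLtJ. Its females held 3.65, 3.24, 3.81 and 3.28 CPM on 44% fat, against 4.29, 4.15, 4.19 and 4.85 CPM on 10% fat. Its males held 1.60, 1.69, 2.21 and 1.89 CPM on 44% fat, against 3.54, 2.35, 3.71 and 2.36 CPM on 10% fat. Neither sex overlapped, and the log2 fold change was -0.51 ± 0.12 (adjusted p = 0.0139, edgeR), beside -0.07 ± 0.13 in CAST/EiJ (0.871) and -0.16 ± 0.13 in C57BL/6J (0.979).

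Col1a1, Col3a1, Tgfb1, Fn1 and Timp1, which are often measured in studies of kidney fibrosis, did not pass the diet test in any strain by edgeR. Col1a1, the main chain of type I collagen, had log2 differences of 0.30 ± 0.26 in NZO/HlLtJ, 0.53 ± 0.27 in CAST/EiJ and -0.20 ± 0.25 in C57BL/6J. The lowest adjusted p of the 3 was 0.397 (edgeR). In CAST/EiJ F on 44% fat, Col1a1 measured 64.0, 28.3, 11.9 and 9.62 CPM, against 16.6, 13.1, 15.8 and 12 CPM on 10% fat. The library at 64.0 CPM also held the highest sum of urothelium markers, 34.0 CPM; the NZO/HlLtJ F library on 44% fat with 32.2 CPM of Col1a1 came next, with 22.7 CPM of those markers, and the other 45 libraries held 3.82 to 11.7 CPM. The part of urothelial tissue in these Col1a1 values was not tested. Col3a1 had differences of 0.30 ± 0.18, 0.34 ± 0.19 and -0.07 ± 0.18 in NZO/HlLtJ, CAST/EiJ and C57BL/6J. Tgfb1 had 0.10 ± 0.07, 0.21 ± 0.08 and 0.06 ± 0.07 in the same order, and fibronectin (Fn1) 0.08 ± 0.12, 0.25 ± 0.13 and 0.12 ± 0.12. Timp1, an inhibitor often induced in injured kidney, had 0.86 ± 0.44 (0.301), 0.95 ± 0.46 (0.362) and 0.34 ± 0.40 (0.997).

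In CAST/EiJ, no member passed by edgeR. The unadjusted p was under 0.05 for 13 of the 55 members, beside 2551 of the 18786 genes tested. Of the members' 55 log2 differences, 40 were above 0. The member nearest to a call was Vim, which encodes the intermediate filament protein vimentin. Vim measured 39.9, 33.1, 36.7 and 31.7 CPM in F on 44% fat, against 31.2, 37.2, 27.8 and 27.7 CPM in F on 10% fat. It measured 30.2, 26.9, 24.0 and 24.9 CPM in M on 44% fat, against 21.2, 21 and 19.6 CPM in M on 10% fat. The females overlapped and the males did not. The log2 difference was 0.27 ± 0.07 (adjusted p = 0.0583, edgeR), and Vim was the 1 member called by DESeq2's Wald test (0.0287), by limma-voom (0.0181) and without the ID run term (adjusted p = 0.0494). It also passed by edgeR without CAST/EiJ F 10% fat replicate 2 (0.32, adjusted p = 0.0124) or M 44% fat replicate 3 (0.29, adjusted p = 0.0381). Injured tubule markers moved with diet in CAST/EiJ: the 6 genes summed to 370.4, 104, 110.0 and 134 CPM in F on 44% fat against 69.9 to 77.3 CPM in F on 10% fat, and to 74.0 to 116 CPM in M on 44% fat against 44.8 to 55.2 CPM in M on 10% fat. The female at 370.4 CPM was the library highest in urothelium markers, and the other females on 44% fat also lay above all females on 10% fat. Of these markers, Clu (log2 fold change 1.19, adjusted p = 0.000119) and Havcr1 (2.02, adjusted p = 0.00286) rose, as did the macrophage marker Cd14 (0.84, adjusted p = 0.0157), by edgeR. The sums of the 8 macrophage markers in CAST/EiJ F were 137 to 164 CPM on 44% fat against 115 to 126 CPM on 10% fat. In CAST/EiJ M they were 161 to 175 CPM against 129 to 150.2 CPM. In NZO/HlLtJ and C57BL/6J the macrophage sums overlapped between diets in each sex. In NZO/HlLtJ F the injured tubule sums were also higher on 44% fat without overlap, at 278 to 339 CPM against 249.9 to 252.8 CPM. In NZO/HlLtJ M and in both sexes of C57BL/6J these sums overlapped between diets. No marker of either list was at 0, and their part in the members' values was not tested.

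The diet effect of NZO/HlLtJ minus that of C57BL/6J passed for no member by edgeR, and 0.0373% of all genes passed. An unadjusted p under 0.05 was found there for 2 of the 55 members and for 1291 of the 18786 genes tested. No member passed for a difference of diet effects between F and M in NZO/HlLtJ, CAST/EiJ or C57BL/6J by edgeR. Of all genes, 0.00532%, 0.0479% and 0% passed, in that order. The unadjusted p was under 0.05 for 8, 2 and 1 of the 55 members, beside 2097, 1457 and 530 of the 18786 genes. The other tools, DESeq2, limma-voom and limma on the deposited log2 matrix, also gave 0 members in these 4 comparisons.

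**Figure D3:**
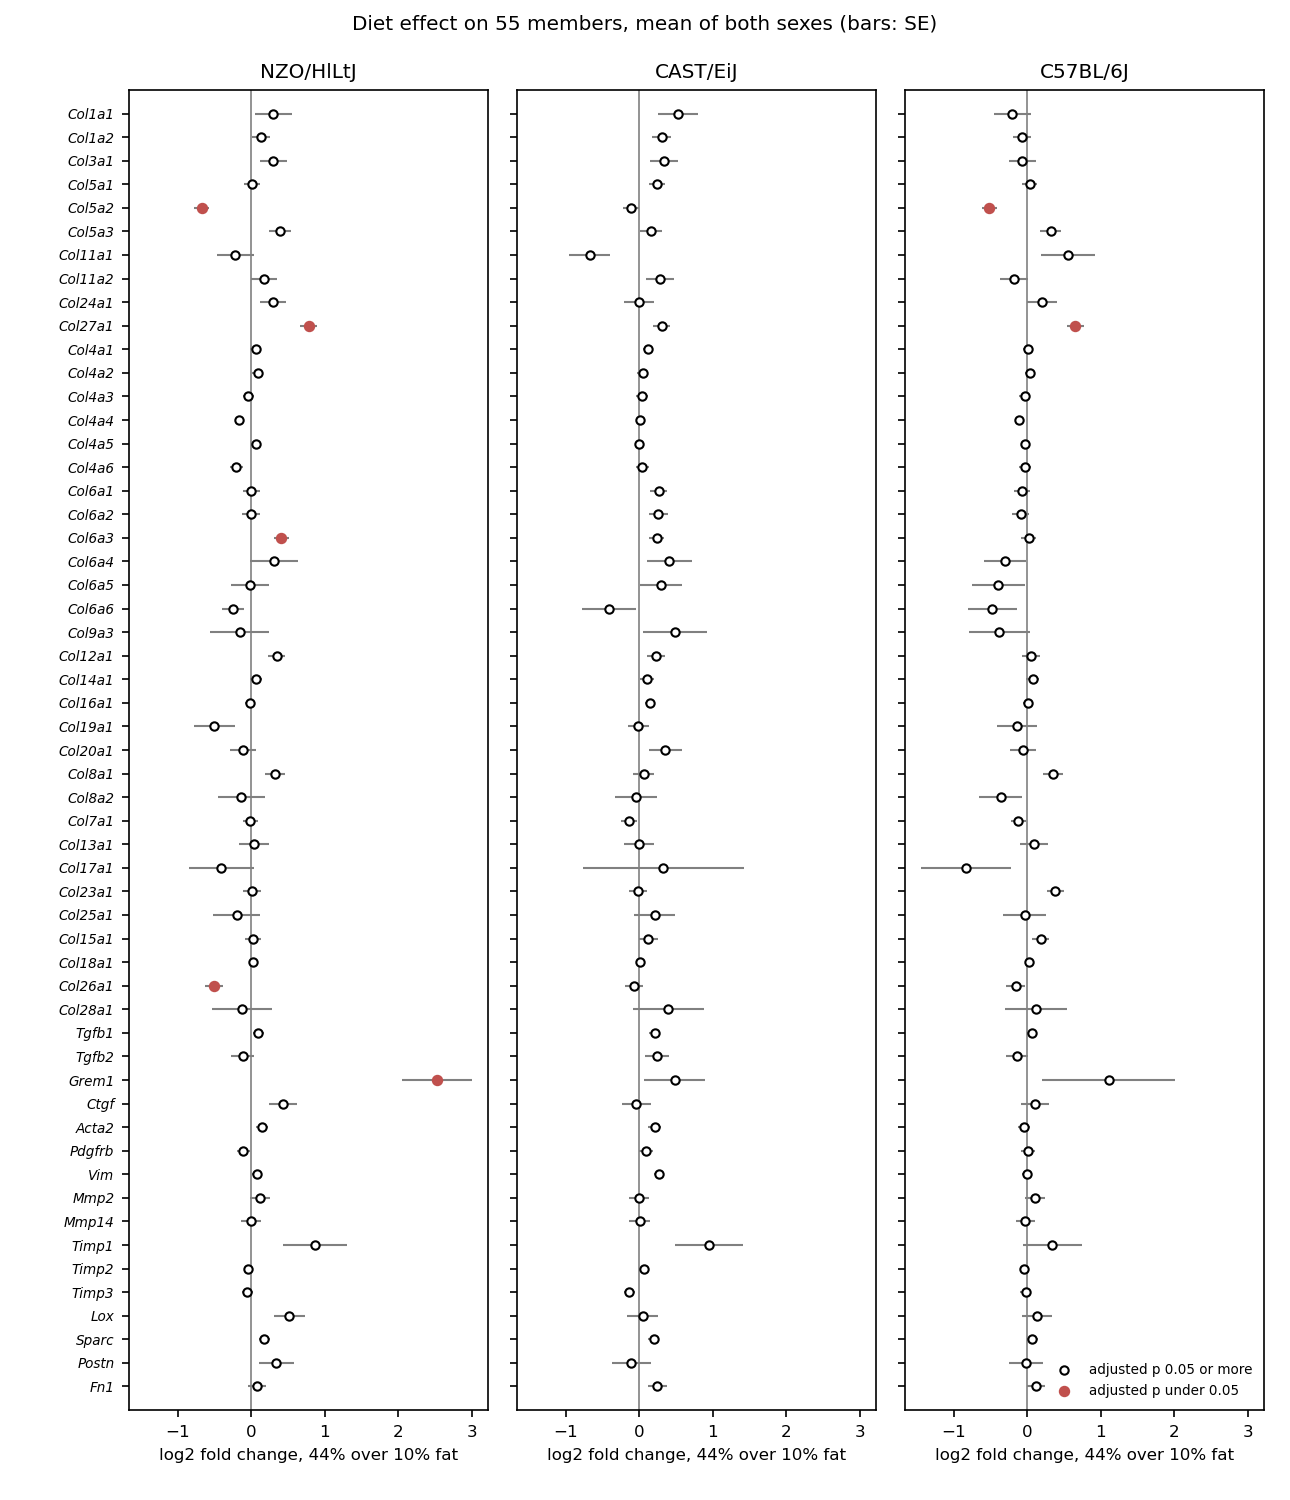
Log2 fold change of 44% over 10% fat, with bars of 1 SE, for the 55 members in NZO/HlLtJ, CAST/EiJ and C57BL/6J; filled red points have an adjusted p under 0.05. The red points are Col27a1, Grem1, Col6a3, Col5a2 and Col26a1 in NZO/HlLtJ and Col27a1 and Col5a2 in C57BL/6J, and CAST/EiJ has none.

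Of 105 other tested genes of the same pathways, in 6 lists, 1.9% rose and 1.9% fell on 44% fat in NZO/HlLtJ, near the 1.98% and 1.64% of all genes. In CAST/EiJ 0.952% rose and none fell, beside 0.543% and 0.447% of all genes, and in C57BL/6J 0.952% rose and none fell, beside 0.0213% and 0.00532%; each of those shares is 1 gene. None of 20 genes of TGF-beta signalling and none of 8 collagen receptors passed in any strain. Of 23 tested genes of collagen synthesis and crosslinking, Loxl2, a lysyl oxidase, rose in NZO/HlLtJ (0.37, adjusted p = 0.0132, edgeR). Of 16 basement membrane genes, Lamb3, a laminin chain, rose in CAST/EiJ (0.76, adjusted p = 0.0277). Among 17 tested matrix proteases and related genes, the urokinase gene Plau fell by 0.55 in NZO/HlLtJ (adjusted p = 0.00829) and Mmp12, the macrophage elastase, rose by 1.07 in C57BL/6J (adjusted p = 0.0438). Of 21 tested interstitial matrix genes, Spp1, which encodes osteopontin, rose by 0.40 (adjusted p = 0.0111) and Efemp1, a fibulin, fell by 0.40 (adjusted p = 0.00056), both in NZO/HlLtJ.

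Strains were compared on 10% fat, with both sexes weighted equally. NZO/HlLtJ had 11 members higher and 17 lower than C57BL/6J, 20% and 30.9% of the 55, beside 18.6% and 18.3% of all genes. CAST/EiJ had 19 members higher and 12 lower than C57BL/6J, 34.5% and 21.8%, beside 30.3% and 29.7% of all genes. NZO/HlLtJ had 11 members higher and 27 lower than CAST/EiJ, 20% and 49.1%, beside 29.2% and 29.9%. Fibroblast markers moved with the last comparison, with 7 of 8 lower in NZO/HlLtJ than in CAST/EiJ and none higher (median log2 fold change -1.136); their sums over both diets were 83.1 to 111 CPM in NZO/HlLtJ F against 147 to 265 CPM in CAST/EiJ F, and 60.6 to 84.3 CPM in NZO/HlLtJ M against 128 to 157 CPM in CAST/EiJ M. Pericyte and mesangial markers had 1 of 7 higher and 4 lower, smooth muscle 2 of 6 higher and 3 lower, endothelium 1 of 8 higher and 4 lower, and adipocytes none of 6 higher and 4 lower. Their part in the members' values was not tested. These strain comparisons share groups, so each gene's values stand side by side and the lists were not set against each other. The median log2 fold change of the members was -0.02, 0.01 and -0.24 in the 3 comparisons in that order, beside 0.0014, 0.0088 and -0.0074 over all genes. Whether NZO/HlLtJ and CAST/EiJ reads were aligned to GRCm38 or to a genome of their own strain is not given in the sources used here. The part of alignment in the strain differences, those of Col6a6, Col19a1 and Col15a1 included, was not tested.

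The main interstitial collagens were lower in NZO/HlLtJ than in C57BL/6J. Col1a1 fell by 1.36 ± 0.26 (adjusted p = 6.67e-05), Col1a2 fell by 0.81 ± 0.13 (2.52e-06) and Col3a1 fell by 0.82 ± 0.19 (adjusted p = 0.000537, edgeR). On 10% fat, Col1a1 measured 16.5, 16.1, 10.1 and 10.5 CPM in NZO/HlLtJ F and 9.76, 10.3, 14.1 and 16.2 CPM in NZO/HlLtJ M. It measured 48.3, 22.2, 39.7 and 46.9 CPM in C57BL/6J F and 24.1, 23.6, 24.6 and 27.7 CPM in C57BL/6J M. Neither sex overlapped. The type VI chains Col6a1 and Col6a2 had log2 fold changes of -0.88 and -0.82, the type V chains Col5a1 and Col5a3 of -0.57 and -0.72, the crosslinking enzyme Lox of -0.83, Acta2 (smooth muscle actin) of -0.77 and the membrane-bound protease Mmp14 of -0.56, each with an adjusted p under 0.05. Fn1 (-0.20 ± 0.13), Timp3 (-0.02 ± 0.07), Tgfb1 (-0.07 ± 0.07) and Col5a2 (-0.02 ± 0.10) did not pass. Smooth muscle markers moved with this comparison, since 6 of 6 were lower in NZO/HlLtJ; their sum over both diets was 158 to 180.3 CPM in NZO/HlLtJ F against 224 to 259 CPM in C57BL/6J F, and 167 to 254 CPM in NZO/HlLtJ M against 234 to 345 CPM in C57BL/6J M. Fibroblast markers did as well, with 5 of 8 lower in NZO/HlLtJ and none higher, and sums of 83.1 to 111 CPM in NZO/HlLtJ F against 119.5 to 169.6 CPM in C57BL/6J F. Of 8 endothelial markers, 7 were lower in NZO/HlLtJ. Pericyte and mesangial markers went the other way. Their sums over both diets were 269.8 to 305 CPM in NZO/HlLtJ F against 209 to 242 CPM in C57BL/6J F. In M they were 170.2 to 248 CPM in NZO/HlLtJ against 151 to 193 CPM in C57BL/6J, which overlapped. The part of these cell types in the members' values was not tested.

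CAST/EiJ stood above C57BL/6J for both genes with diet calls in 2 strains. Col27a1 was higher by 1.78 ± 0.12 (adjusted p = 1.32e-15) and Col5a2 by 1.77 ± 0.10 (4.15e-17), by edgeR. Fn1, on chromosome 1 at 71585520 to 71653200, rose by 1.10 ± 0.13 (adjusted p = 3.38e-09). On 10% fat it measured 271, 269.8, 278 and 161 CPM in CAST/EiJ F and 108, 76.8, 109.9 and 97.9 CPM in C57BL/6J F. In males it measured 83.5, 86.1 and 74.7 CPM in CAST/EiJ and 38.3, 45.2, 41.9 and 53.4 CPM in C57BL/6J. Neither sex overlapped. Grem1 was higher in CAST/EiJ by 5.68 ± 0.63 (1.27e-09), with 11.9, 8.63, 2.61 and 3.47 CPM in CAST/EiJ F against 0.266, 0.0729, 0.169 and 0.173 CPM in C57BL/6J F on 10% fat. Mmp2, a gelatinase, was higher by 1.01 ± 0.14, and Col11a1, a minor fibrillar chain, by 2.87 ± 0.33. Fibroblast markers were higher in CAST/EiJ for 5 of 8 and lower for none, with sums over both diets of 147 to 265 CPM in CAST/EiJ F against 119.5 to 169.6 CPM in C57BL/6J F. Pericyte and mesangial markers had 4 of 7 higher and 1 lower in CAST/EiJ, smooth muscle 1 of 6 higher and 3 lower, endothelium 1 of 8 higher and 4 lower, and macrophages 2 of 8 higher and 4 lower. Their part in the members' values was not tested. Col15a1, a collagen of basement membrane zones on chromosome 4 (47208161 to 47313167), differed in CAST/EiJ from C57BL/6J by -2.04 ± 0.13 (adjusted p = 1.57e-16). It measured 9.63, 7.41, 10.9 and 7.79 CPM in CAST/EiJ F and 44.9, 31.9, 42.2 and 43.0 CPM in C57BL/6J F on 10% fat. It measured 8.56, 8.58 and 6.12 CPM in CAST/EiJ M and 26.8, 28.5, 26.3 and 32.3 CPM in C57BL/6J M, and neither sex overlapped. Col4a3, a chain of the glomerular basement membrane, fell by 0.62 ± 0.08, Col16a1 fell by 1.36 ± 0.07 and Col1a1 fell by 1.11 ± 0.27, all past the threshold. Of the 6 basement membrane collagens tested, Col4a3 was the 1 lower in CAST/EiJ. The 2 higher were Col4a2 and Col4a5, and Col4a4 did not pass.

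The widest strain difference among the members tested belonged to Col6a6, an alternative chain of type VI collagen on the minus strand of chromosome 9 (105687809 to 105828160). On 10% fat, Col6a6 measured 223, 246, 238 and 269 CPM in NZO/HlLtJ M, 2.88, 3.93 and 2.10 CPM in CAST/EiJ M and 17.9, 33.3, 16.3 and 17.5 CPM in C57BL/6J M. The females measured 28.0, 36.9, 30.2 and 32.9 CPM in NZO/HlLtJ, 0.524, 0.138, 0.455 and 0.230 CPM in CAST/EiJ and 0.205, 0.292, 0.485 and 0.384 CPM in C57BL/6J. NZO/HlLtJ lay above both other strains without overlap in each sex, and C57BL/6J M above CAST/EiJ M. The log2 fold change was 5.04 ± 0.21 for NZO/HlLtJ over C57BL/6J (adjusted p = 2.74e-20), 6.44 ± 0.24 for NZO/HlLtJ over CAST/EiJ (2.89e-22) and -1.39 ± 0.36 for CAST/EiJ over C57BL/6J (adjusted p = 0.00109, edgeR). Its neighbour Col6a5, at 105856070 to 105960643 on the same strand, was also higher in NZO/HlLtJ than in C57BL/6J, by 3.19 ± 0.30. Col6a5 measured 13.1, 11.5, 12.8 and 12.8 CPM in NZO/HlLtJ F, 4.27, 3.35, 3.95 and 2.94 CPM in CAST/EiJ F and 1.33, 0.274, 1.16 and 1.53 CPM in C57BL/6J F on 10% fat, with no overlap. Col6a4, next along the chromosome at 105989454 to 106096783, differed in NZO/HlLtJ from C57BL/6J by -1.35 ± 0.31 (adjusted p = 0.000538). Col11a1 was higher in NZO/HlLtJ than in C57BL/6J by 3.20 ± 0.32, with 1.99, 1.70, 2.09 and 2.21 CPM in NZO/HlLtJ F against 0.307, 0.109, 0.211 and 0.249 CPM in C57BL/6J F on 10% fat. Grem1 and the hemidesmosome collagen Col17a1 were higher in NZO/HlLtJ too, by 2.59 ± 0.77 (adjusted p = 0.00733) and 1.39 ± 0.50 (0.0265), but neither passed under limma-voom (2.31, adjusted p = 0.199 and 1.16, adjusted p = 0.194). The Col17a1 call was also lost without NZO/HlLtJ M 10% fat replicate 1 (adjusted p = 0.0509), F 10% fat replicate 3 (0.0622) or M 10% fat replicate 4 (0.0939).

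Females were set against males within each strain, with both diets weighted equally. In NZO/HlLtJ 22 members were higher in F and 6 lower, in CAST/EiJ 29 and 4, and in C57BL/6J 34 and 4. These were 40.0% and 10.9% of the 55 members in NZO/HlLtJ, beside 25.4% and 24.5% of all genes. They were 52.7% and 7.27% in CAST/EiJ, beside 23.7% and 23.9%, and 61.8% and 7.27% in C57BL/6J, beside 25.1% and 22.7%. The median member was higher in F by 0.26, 0.39 and 0.42 on the log2 scale in NZO/HlLtJ, CAST/EiJ and C57BL/6J, beside 0.0383, 0.0471 and 0.0459 over all genes. Fibroblast markers were higher in F for 7 of 8 in each strain and lower for none, and all 5 podocyte markers were higher in F in each strain. Injured tubule markers had 2, 3 and 4 of 6 higher in F in NZO/HlLtJ, CAST/EiJ and C57BL/6J and 0, 1 and 0 lower. Podocyte marker sums were 488 to 527 CPM in NZO/HlLtJ F against 305 to 379 CPM in M, 493 to 537 in CAST/EiJ F against 326 to 407 in M, and 477 to 522 in C57BL/6J F against 338 to 411 in M. Fibroblast marker sums were 83.1 to 111 CPM in NZO/HlLtJ F against 60.6 to 84.3 in M, 147 to 265 in CAST/EiJ F against 128 to 157 in M, and 119.5 to 169.6 in C57BL/6J F against 99.9 to 116 in M. Injured tubule marker sums were 249.9 to 339 CPM in NZO/HlLtJ F against 142 to 196 in M, 69.9 to 370.4 in CAST/EiJ F against 44.8 to 116 in M, and 213 to 257 in C57BL/6J F against 141 to 187 in M. No marker of these lists was at 0, and their part in the members' values was not tested.

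By role, the beaded filament chains Col6a1, Col6a2 and Col6a3 were higher in F in each strain, by 0.41 to 0.90. Of the 6 such genes tested, 50%, 66.7% and 50% were higher in F in NZO/HlLtJ, CAST/EiJ and C57BL/6J. The shares lower in F were 16.7%, 16.7% and 33.3%, beside 24.5%, 23.9% and 22.7% of all genes. Col6a6 was lower in F in each strain, and Col6a4 was lower in F in C57BL/6J and higher in CAST/EiJ. Of the 10 fibrillar genes tested, 3 in NZO/HlLtJ, 5 in CAST/EiJ and 5 in C57BL/6J were higher in F, or 30%, 50% and 50%, beside 25.4%, 23.7% and 25.1% of all genes. Col5a3, a type V chain, was lower in F in NZO/HlLtJ (-0.76 ± 0.15, adjusted p = 3.78e-05). Col5a2 was among them in all 3 strains, at 1.16 ± 0.10 in NZO/HlLtJ, 0.64 ± 0.10 in CAST/EiJ and 1.11 ± 0.10 in C57BL/6J, and F did not overlap M in any strain. Col1a1 passed in C57BL/6J (0.82 ± 0.25, adjusted p = 0.00788), while the values in NZO/HlLtJ (0.19 ± 0.26) and CAST/EiJ (0.34 ± 0.27) did not pass. Col27a1 was higher in F in CAST/EiJ (0.55 ± 0.12, adjusted p = 0.00017) and its differences of 0.07 ± 0.11 in NZO/HlLtJ and 0.05 ± 0.11 in C57BL/6J did not pass. The basement membrane chain Col4a6 was higher in F by 0.93, 0.53 and 0.61 in NZO/HlLtJ, CAST/EiJ and C57BL/6J. Of the 6 basement membrane chains, 16.7%, 50% and 83.3% were higher in F in these strains, beside 25.4%, 23.7% and 25.1% of all genes. The shares lower in F were 16.7%, 16.7% and 0%. The lower chains were Col4a4 in NZO/HlLtJ and Col4a3 in CAST/EiJ. The proteases Mmp2 (0.50, 0.44, 0.89) and Mmp14 (0.59, 0.53, 0.70), the inhibitor Timp2 (0.37, 0.42, 0.47), periostin (Postn; 0.88, 0.80, 1.06) and vimentin (Vim; 0.33, 0.51, 0.30) were higher in F in those strains, in the same order. Each of these passed the test; without CAST/EiJ F 44% fat replicate 1, the library highest in urothelium markers, Postn in CAST/EiJ did not (adjusted p = 0.0554).

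Fn1 and Tgfb2 separated the sexes without overlap in every strain. Fn1 had a minimum, median and maximum of 69.1, 78.7 and 84.0 CPM in NZO/HlLtJ F and 28.0, 45.5 and 59.4 CPM in M. In CAST/EiJ these were 161, 275 and 368 CPM in F and 74.7, 86.1 and 112 CPM in M, and in C57BL/6J 76.8, 109 and 144 CPM in F and 38.3, 43.7 and 54.8 CPM in M. The log2 fold changes were 0.83 ± 0.12, 1.65 ± 0.13 and 1.22 ± 0.13 in NZO/HlLtJ, CAST/EiJ and C57BL/6J, and the largest adjusted p was 7.41e-07 (edgeR). Tgfb2, on chromosome 1 at 186622792 to 186705989, had 4.61, 5.98 and 6.96 CPM in NZO/HlLtJ F and 0.898, 1.69 and 2.07 CPM in M. It had 2.73, 3.21 and 7.18 CPM in CAST/EiJ F and 1.49, 1.75 and 2.41 CPM in M, and 4.49, 5.53 and 6.67 CPM in C57BL/6J F and 1.40, 1.52 and 1.83 CPM in M. Its log2 fold changes were 1.84 ± 0.16, 1.07 ± 0.16 and 1.81 ± 0.16. Col17a1, on chromosome 19 at 47646344 to 47692094, was higher in F in NZO/HlLtJ (3.97 ± 0.43) and C57BL/6J (4.40 ± 0.52). Its minimum, median and maximum were 0.819, 5.0 and 12.2 CPM in NZO/HlLtJ F and 0.141, 0.323 and 0.537 CPM in M, and 0.421, 1.75 and 4.18 CPM in C57BL/6J F and 0, 0.102 and 0.212 CPM in M. In CAST/EiJ it stayed at or under 0.267 CPM in F and 0.109 CPM in M, and the log2 difference of 1.67 ± 0.93 did not pass (adjusted p = 0.141).

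Against that direction, Col19a1, Col6a6 and Timp3 were lower in F in all 3 strains. Col19a1 encodes a fibril-associated collagen and lies on the minus strand of chromosome 1, at 24261890 to 24587472. The sequences before the starts of Col19a1 and Col6a6 are shown because both genes were many times lower in F; they are chr1:24587473-24587687 and chr9:105828161-105828335, both minus strand, of GRCm38.p6, from RefSeq, with bases that GENCODE counts as exon left out and the same motifs in capitals.
Col19a1: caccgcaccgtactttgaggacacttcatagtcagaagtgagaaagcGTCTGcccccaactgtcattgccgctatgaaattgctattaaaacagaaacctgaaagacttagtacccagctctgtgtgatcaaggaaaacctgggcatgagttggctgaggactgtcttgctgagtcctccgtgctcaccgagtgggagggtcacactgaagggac
Col6a6: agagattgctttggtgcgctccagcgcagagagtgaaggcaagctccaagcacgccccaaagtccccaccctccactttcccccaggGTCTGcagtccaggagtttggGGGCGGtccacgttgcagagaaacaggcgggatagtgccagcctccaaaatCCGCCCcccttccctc
Over the whole 250 upstream bases, Col6a6 held 2 GC boxes and 1 SMAD element and Col19a1 held 1 SMAD element. Neither window held TATAAA or AGAACA, and matches did not overlap.

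Col19a1 had a minimum, median and maximum of 0.0911, 0.174 and 0.348 CPM in NZO/HlLtJ F and 7.44, 10.9 and 15 CPM in M. In C57BL/6J these were 0.128, 0.197 and 0.359 CPM in F and 3.62, 6.30 and 9.92 CPM in M. In CAST/EiJ they were 12.7, 13.3 and 14.2 CPM in F and 21.5, 27.2 and 30.2 CPM in M. No strain overlapped between the sexes, and CAST/EiJ F lay within the range of NZO/HlLtJ M and above C57BL/6J M. The log2 fold changes were -5.81 ± 0.22, -1.0 ± 0.14 and -4.94 ± 0.22 in NZO/HlLtJ, CAST/EiJ and C57BL/6J (largest adjusted p 1.74e-07, edgeR). The difference of CAST/EiJ minus C57BL/6J was 3.95 ± 0.27 (adjusted p = 4.2e-14). Between strains on 10% fat, Col19a1 was higher in CAST/EiJ than in C57BL/6J by 3.89 ± 0.18.

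Col6a6 had 22.7, 27.7 and 36.9 CPM in NZO/HlLtJ F and 213, 221 and 269 CPM in M. It had 0.138, 0.325 and 0.650 CPM in CAST/EiJ F and 0.743, 2.41 and 3.93 CPM in M, and 0.171, 0.393 and 0.485 CPM in C57BL/6J F and 6.46, 16.3 and 33.3 CPM in M. The sexes did not overlap in any strain. The log2 fold changes were -3.0 ± 0.16, -2.76 ± 0.33 and -5.44 ± 0.26 in NZO/HlLtJ, CAST/EiJ and C57BL/6J. Timp3, which encodes an inhibitor bound to the matrix, lies on chromosome 10 at 86300372 to 86349506. It measured 1409, 1774 and 1881 CPM in CAST/EiJ F and 3144, 3625 and 4769 CPM in M. These did not overlap, and the log2 fold change was -1.16 ± 0.08 (adjusted p = 1.92e-16). In NZO/HlLtJ it was -0.27 ± 0.07 and in C57BL/6J -0.30 ± 0.08, with ranges that overlapped between the sexes.

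**Figure D4:**
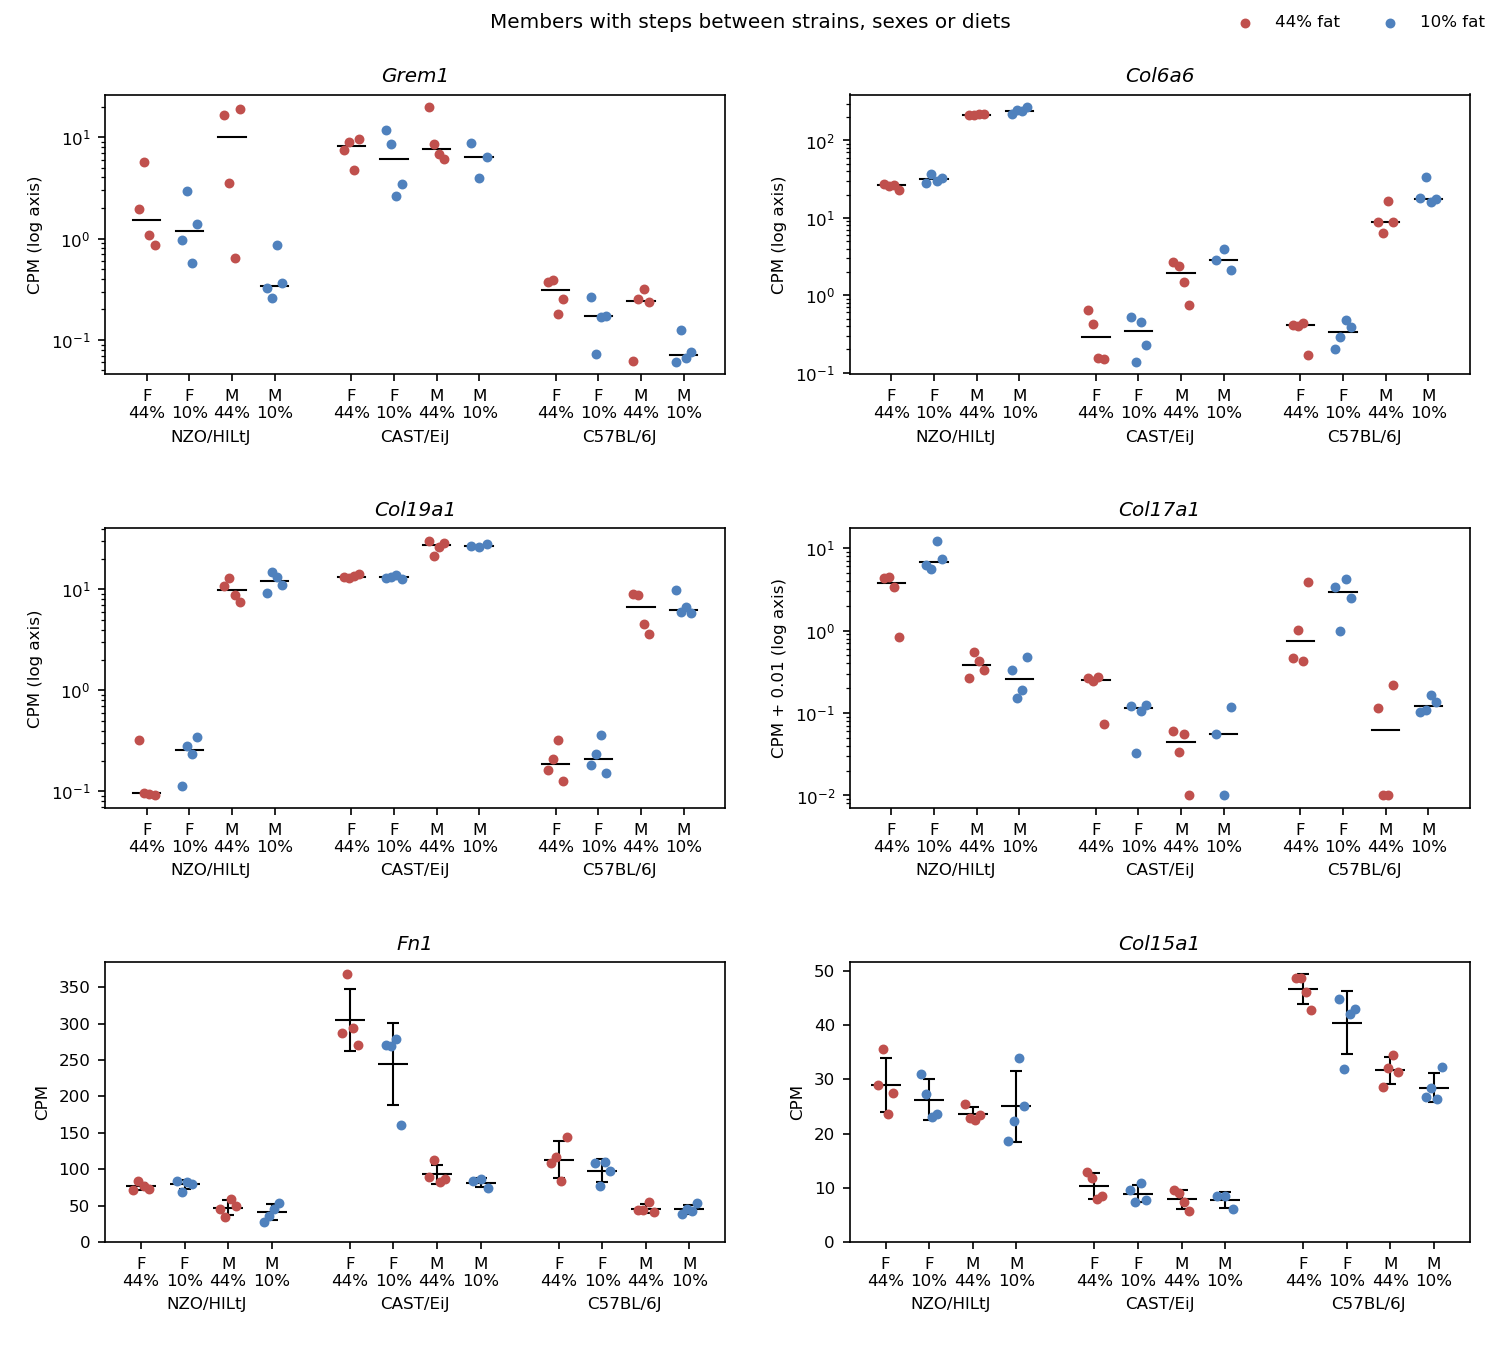
CPM in each library for Grem1, Col6a6, Col19a1 and Col17a1 on log axes with lines at the median (0.01 CPM was added to Col17a1 so that libraries at 0 could be drawn), and for Fn1 and Col15a1 on linear axes with the mean and SD. Col6a6 is highest in NZO/HlLtJ M, Col19a1 is near 0 in F of NZO/HlLtJ and C57BL/6J and not in F of CAST/EiJ, Col17a1 is higher in F of NZO/HlLtJ and C57BL/6J, Fn1 is highest in CAST/EiJ F, and Col15a1 is lowest in CAST/EiJ.

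The sex difference itself was then compared between strains. Against C57BL/6J, NZO/HlLtJ had 2 members with a higher F over M log2 fold change, its sign counted, and 2 with a lower one. Together these were 7.27% of 55, beside 4.95% of all genes. CAST/EiJ had 6 and 9, together 27.3%, beside 13.2% of all genes. Col23a1, a transmembrane collagen on chromosome 11 (51289920 to 51583918), passed in both. It measured 6.58, 8.11 and 10.1 CPM in NZO/HlLtJ F and 1.89, 2.45 and 2.90 CPM in M, and 7.50, 9.91 and 11.5 CPM in CAST/EiJ F and 2.90, 4.05 and 6.02 CPM in M, without overlap. In C57BL/6J it measured 2.34, 3.50 and 4.57 CPM in F and 2.66, 3.35 and 3.77 CPM in M, which overlapped. The difference of NZO/HlLtJ minus C57BL/6J was 1.74 ± 0.17 (adjusted p = 8.9e-10) and of CAST/EiJ minus C57BL/6J 1.17 ± 0.17 (2.23e-06). Both used the same C57BL/6J libraries. Timp3 differed in CAST/EiJ by -0.86 ± 0.11 (adjusted p = 6.28e-08), and Col5a3 and Col4a1 in NZO/HlLtJ by -0.91 ± 0.21 and -0.41 ± 0.10. Col6a6 differed by 2.43 ± 0.33 in NZO/HlLtJ and 2.68 ± 0.52 in CAST/EiJ. Since Col6a6 was lower in F in every strain, these values mean a smaller male excess on the log2 scale than in C57BL/6J. The same holds for Col19a1 in CAST/EiJ. On the deposited log2 matrix, whose scale flattens low values, the NZO/HlLtJ difference of Col6a6 was 0.05 (adjusted p = 0.926, limma).

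**Figure D5:**
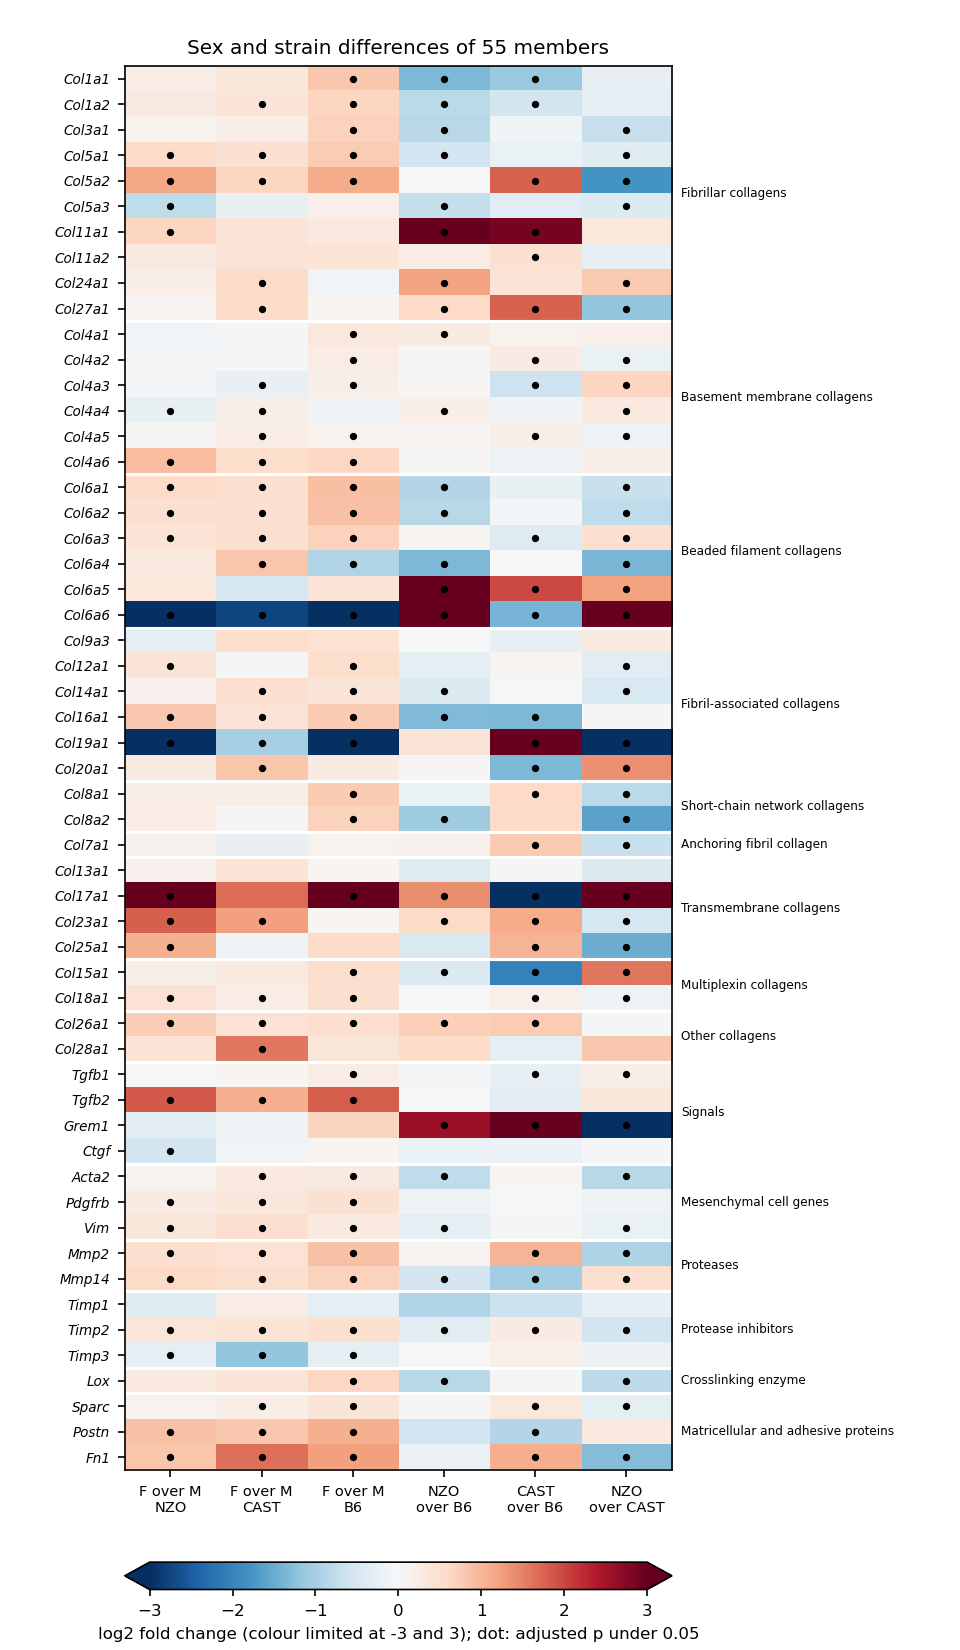
Heat map of the log2 fold changes of the 55 members, with columns for F over M in NZO/HlLtJ (NZO), CAST/EiJ (CAST) and C57BL/6J (B6) and for NZO over B6, CAST over B6 and NZO over CAST on 10% fat; the colour scale ends at -3 and 3 and dots mark an adjusted p under 0.05. The sex columns hold 22, 29 and 34 members higher in F, and Col19a1, Col6a6 and Timp3 are lower in F in all 3.

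The other genes of these pathways gave the following counts for F against M, in NZO/HlLtJ, CAST/EiJ and C57BL/6J in that order. Over the 105 genes, 51.4%, 50.5% and 64.8% were higher in F, beside 25.4%, 23.7% and 25.1% of all genes, and 11.4%, 12.4% and 9.52% were lower, beside 24.5%, 23.9% and 22.7%. Of 21 interstitial matrix genes, 14, 16 and 19 were higher in F and 1, 0 and 0 lower; the list holds Dcn and Lum, which are also fibroblast markers. Of 23 genes of collagen synthesis, 9, 10 and 14 were higher and 5 in each strain lower; Pcolce2, an enhancer of procollagen processing, had log2 fold changes of 2.66, 1.94 and 2.39. Of 16 basement membrane genes, 12, 9 and 13 were higher and 2 in each strain lower, with nephronectin (Npnt) at 0.95, 0.73 and 1.28. Of 20 TGF-beta genes, 9, 11 and 11 were higher and 3, 3 and 2 lower. Of 17 protease genes, 6, 5 and 7 were higher and 0, 3 and 1 lower; Reck, a membrane inhibitor of metalloproteases, had 0.70, 0.66 and 0.64. Of 8 receptors, 4, 2 and 4 were higher and 1, 0 and 0 lower. In CAST/EiJ the shares higher in F of the protease list (29.4%) and of the receptor list (25%) lay near the 23.7% of all genes. Between strains, 9.52% of the 105 genes were higher and 36.2% lower in NZO/HlLtJ than in C57BL/6J, beside 18.6% and 18.3% of all genes, and 36.2% were higher and 35.2% lower in CAST/EiJ than in C57BL/6J, beside 30.3% and 29.7%. The interstitial matrix list had 1 gene higher and 11 lower in NZO/HlLtJ than in C57BL/6J, and 5 higher and 7 lower in CAST/EiJ than in C57BL/6J. The synthesis list had 3 and 8 in NZO/HlLtJ and 10 and 8 in CAST/EiJ, the TGF-beta list 2 and 8 and 10 and 6, the basement membrane list 4 and 3 and 6 and 7, the protease list 0 and 5 and 5 and 7, and the receptor list 0 and 3 and 2 and 2. Single genes of these lists differed widely in CAST/EiJ against C57BL/6J: the collagenase Mmp13 by -6.21, the integrin chain Itgb6 by -3.26 and fibrillin 2 (Fbn2) by 3.46, all by edgeR with adjusted p under 0.05.

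In several of the pairs tested, members whose products share a fibre or network varied together from library to library, while Col5a1 and Col5a2 did not. After the mean of each of the 12 groups was taken away, Pearson's r over the 47 libraries was 0.942 for Col4a1 and Col4a2 (Spearman's rho 0.921), 0.872 for Col4a3 and Col4a4 (0.855), 0.927 for Col1a1 and Col1a2 (0.914) and 0.929 for Col1a1 and Col3a1 (0.899). Each had a permutation p of 1e-05, the smallest that 100000 permutations within groups can give (adjusted over the 7 pairs tested, 1.75e-05 for r), and r was 0.902 or higher in the pairs of Col1a1 and 0.879 or higher in the type IV pairs without the 2 libraries farthest from the median. Both genes of a pair were measured in the same libraries and share their depth. The permutations kept libraries within their groups and took no account of the ID run. Col4a1 and Col4a2, on opposite strands of chromosome 8, overlap by 21 bases at their starts, where unstranded counting could not tell their reads apart. Col4a3 and Col4a4 start 72 bases apart on chromosome 1 and do not overlap. Col5a1 followed Col3a1 (r 0.769, rho 0.732, adjusted permutation p = 2.8e-05; 0.689 without the 2 farthest). Col5a2, although its product joins that of Col5a1 in type V collagen, had r 0.026 with Col5a1 (rho 0.023, permutation p = 0.882), and Col27a1 with Col5a2 had -0.169 (rho -0.151, permutation p = 0.291, adjusted 0.339). Col5a2 lies 24615 bases from Col3a1 on chromosome 1.

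With only the means of strain and sex taken away, so that the diet difference remained in the values, the genes most like Col27a1 among 12719 others included Pdxk (r 0.784), which encodes pyridoxal kinase, Prnp (0.77), Cadps2 (0.756) and Acaa2 (0.735), of mitochondrial fatty acid oxidation. Those most like Col5a2 included Slc22a26 (0.804), Myo5a (0.795), the lipoprotein lipase gene Lpl (0.769) and Uxs1 (0.744). Col27a1 and Col5a2 had r of -0.682 with each other on this scale. These values describe 47 libraries that share diet, ID run and depth.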

How the data were processed

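Poly(A)-selected RNA was sequenced as 100 bp paired reads with a target of 30 M pairs per library, per the labels' protocols. Expected counts per gene were deposited by the authors; the aligner and counter, and whether counting used strand, are not given in the sources used here, and GRCm38 and DESeq2 are named in the submitters' processing notes. The authors also deposited a variance-stabilized log2 matrix (values 5.93 to 21.1), used here as 1 alternative. Of the expected counts, 21.1% were not whole and were rounded.

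CPM values (counts scaled to a common library total) with TMM factors and all tests came from edgeR 4.0.16 in R 4.3.3. A robust quasi-likelihood model held the 12 groups and the ID run (the leading number of the library IDs: 77, 81 and 89, with 16, 16 and 15 libraries); 18786 genes passed the filter on low counts and 3688 did not, leaving 33 residual degrees of freedom. Adjusted p-values (Benjamini-Hochberg, threshold 0.05) cover all genes tested in each of 16 comparisons, and standard errors were derived from the F statistics. The model was also run on counts simulated from the means and spread of these data, with an outcome not reported here. Xist and Ddx3y matched the sex labels in 47 of 47 libraries, and no 2 libraries were identical. Levels per kilobase used GENCODE exon lengths; 52 of 59 members had the same coordinates there. Of the members, 45 had a RefSeq promoter entry, and 14 overlap another annotated gene, 10 of them on the other strand. Correlations of the pairs of members used log2 CPM with 0.1 added. Those that ranked the genes most like Col27a1 and Col5a2 used edgeR's log2 CPM, which adds a prior count instead.

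The members, the 6 pathway lists and the 12 marker lists were chosen with earlier results of these data known. Values per library are given for up to 10 called members with the highest and 10 with the lowest log2 fold change in a comparison, with average log2 CPM of at least 0; Col27a1 and Col5a2 appear in every diet comparison. From each list up to 4 genes with the smallest adjusted p are named, and for Col27a1 and Col5a2 genes among the 5 most correlated, 1 of which is not reported here for each. Alternatives were DESeq2 1.42.0, limma 3.58.1 (voom, and the deposited matrix), other size factors, no filter, no ID run term, only the strains compared, and each library left out. Leaving out the 2 libraries highest in urothelium markers was added after seeing the data. An RNA spike-in was added per the labels' protocols and was not used here.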

Additional observations from a re-analysis of the deposited data

Results flagged for a closer look

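In 15 members, 165 groups of 4 libraries were searched for a library that stood apart from the others of its group (a gap of more than 0.829 of the group's range), which chance alone gives in about 1 of 20 groups; 10 were found. In C57BL/6J M on 10% fat, Col5a2 had 1 library at 34.0 CPM, with the next at 27.0, and Col6a6 had 1 at 33.3 CPM, with the next at 17.9. In C57BL/6J F on 44% fat, Col6a6 had 1 library at 0.171 CPM, below 0.403. In C57BL/6J M on 44% fat, Fn1 had 1 at 54.8 CPM, above 43.8. In CAST/EiJ F on 10% fat, Fn1 had 1 at 161 CPM, below 269.8, and Timp3 had 1 at 1446 CPM, below 1770.1. In CAST/EiJ F on 44% fat, Col17a1 had 1 at 0.0635 CPM, below 0.234, and in CAST/EiJ M on 44% fat Col26a1 had 1 at 4.10 CPM, above 3.01. In NZO/HlLtJ F on 44% fat, Col19a1 had 1 at 0.326 CPM, above 0.0969, and Col1a1 had 1 at 32.2 CPM, above 14.2.

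In all, 20 effects differed between strains by a test of the difference itself (edgeR, adjusted p in brackets). The diet effect on Col5a2 in NZO/HlLtJ minus CAST/EiJ was -0.56 (0.0422). For F over M in NZO/HlLtJ minus C57BL/6J, Col23a1 had a difference of 1.74 (8.9e-10), Col6a6 of 2.43 (3.18e-06), Col4a1 of -0.41 (0.00804) and Col5a3 of -0.91 (0.00407). For F over M in CAST/EiJ minus C57BL/6J, the differences above 0 were those of Col19a1 at 3.95 (4.2e-14), Col6a6 at 2.68 (0.000249), the transmembrane collagen Col23a1 at 1.17 (2.23e-06), Col6a4 at 1.73 (0.00265), Col27a1 at 0.50 (0.0358) and Col4a4 at 0.28 (0.00962). Those below 0 were Timp3 at -0.86 (6.28e-08), Tgfb2 at -0.74 (0.0223), Col8a1 at -0.62 (0.0288), Col12a1 at -0.55 (0.0255), Col5a2 at -0.47 (0.0255), Col4a3 at -0.40 (0.00897), Col16a1 at -0.39 (0.00335), Col4a1 at -0.36 (0.0113) and Col18a1 at -0.27 (0.00759). Of these, some calls were lost when 1 library of the strains compared was left out. Tgfb2 lost its call without CAST/EiJ M 44% fat replicate 1 (0.0522) or C57BL/6J F 44% fat replicate 4 (0.0536). Col12a1 lost its call without CAST/EiJ F 44% fat replicate 3 (0.0522), CAST/EiJ M 10% fat replicate 2 (0.0696) or C57BL/6J F 10% fat replicate 4 (0.0501). Col5a2 lost it without any 1 of 4 libraries (adjusted p up to 0.0838), Col8a1 without any 1 of 5 (up to 0.0829) and Col27a1 without any 1 of 14 (up to 0.104).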

How the results depend on the processing

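No paired analysis was possible because the labels give no replicate numbers. Over 219 results, none of the 1537 values under the 8 other settings reversed and 28 lost their call; of the 3706 values with 1 library left out, none reversed and 139 lost their call. Members called for diet in CAST/EiJ numbered 1 (Vim), in place of 0, with DESeq2's Wald test, with limma-voom and without the ID run term, and 0 to 1 with a library left out. In C57BL/6J they numbered 1, in place of 2, with no filter, with no ID run term, with the deposited log2 matrix and without the 2 libraries highest in urothelium markers, 0 with only the strains compared, and 0 to 2 with a library left out. Col5a2 in C57BL/6J then had -0.52 (adjusted p = 0.0686, no filter), -0.52 (0.0716, no ID run term), -0.48 (0.0529, deposited matrix), -0.51 (0.27, only the strains compared) and -0.52 (0.0589, without the urothelium libraries), and -0.58 to -0.45 with a library left out. Col27a1 in C57BL/6J had 0.65 (0.122) with only the strains compared and 0.62 to 0.74 with a library left out; in NZO/HlLtJ it had 0.73 to 0.83 and Col5a2 -0.72 to -0.62, in CAST/EiJ 0.21 to 0.37 and -0.17 to -0.06. The diet difference of NZO/HlLtJ and CAST/EiJ had 0 members called without the filter (Col5a2 -0.57, adjusted p = 0.0516) and 0 to 2 with a library left out; Grem1 joined without NZO/HlLtJ M 44% fat replicate 3 (2.25, adjusted p = 0.0229). The sex difference of NZO/HlLtJ and C57BL/6J had 8 members with limma-voom, in place of 4, and 4 to 6 with a library left out; that of CAST/EiJ and C57BL/6J had 12 to 20. Other ranges with a library left out were 5 to 6 for diet in NZO/HlLtJ, 27 to 30, 30 to 33 and 34 to 40 for NZO/HlLtJ over C57BL/6J, CAST/EiJ over C57BL/6J and NZO/HlLtJ over CAST/EiJ, 26 to 29, 31 to 35 and 35 to 37 for sex in NZO/HlLtJ, CAST/EiJ and C57BL/6J, and 0 for the remaining diet differences. Causes of lost calls were not tested. Differences in members under 1 CPM, such as Col17a1 in CAST/EiJ, rest on few reads.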

Other observations

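The remaining marker lists were measured as follows. For diet, none of the 7 pericyte and mesangial markers passed in NZO/HlLtJ or C57BL/6J, and the renin gene Ren1 rose in CAST/EiJ (log2 fold change 0.34, adjusted p = 0.0448, edgeR). No marker of fibroblasts, smooth muscle, endothelium, podocytes, adipocytes, blood, adrenal cortex or urothelium passed for diet in any strain. Of 7 proximal tubule markers, 1 was higher on 44% fat in NZO/HlLtJ, and 1 was higher and 1 lower in CAST/EiJ. For F against M, 5, 7 and 6 of 8 endothelial markers were higher in NZO/HlLtJ, CAST/EiJ and C57BL/6J and none lower. Pericyte markers had 4, 5 and 6 of 7 higher and 1, 0 and 1 lower, and smooth muscle markers 1, 3 and 4 of 6 higher and 1, 0 and 1 lower. Of 6 adipocyte markers, 4 were higher in F in NZO/HlLtJ and none in the other strains. Of 5 urothelium markers tested, 2 were higher in F in NZO/HlLtJ and none in the other strains. The 1 adrenal cortex marker tested and 1 of 5 blood markers were higher in F in CAST/EiJ. In NZO/HlLtJ against C57BL/6J, 4 of 7 pericyte markers were higher and 1 lower, and 1 of 8 macrophage markers was higher and 5 lower. Of 6 adipocyte markers, 2 were lower in NZO/HlLtJ. For F against M, macrophage markers had 0, 1 and 1 of 8 higher in NZO/HlLtJ, CAST/EiJ and C57BL/6J and 1, 2 and 0 lower, and proximal tubule markers had 2, 3 and 2 of 7 higher and 2 lower in each strain. Injured tubule markers had 2 of 6 higher and 2 lower in CAST/EiJ than in C57BL/6J, and 3 of 6 higher and none lower in NZO/HlLtJ than in CAST/EiJ.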
